A study of Mus musculus with 7 samples.

Results

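The genes of chromosome segregation and of microtubule motor transport were followed through the retinoic acid differentiation of mouse embryonic stem cells of the CCE line, cultured on gelatin with no feeders. Members were chosen by symbol alone: the kinesin (Kif), centromere protein (Cenp), Aurora kinase (Aurk), Bub, Ndc80, Spc2, Nuf2, Cdc20, cyclin B (Ccnb1 and Ccnb2) and polo-like kinase (Plk) names. The rule found 75 symbols among the 12071 of the deposited table, and 54 of them passed the filter on low values, as did 7242 symbols in all. For a symbol with several transcripts, the transcript with the highest mean was used. Of the 75 members, 41 were listed as mitotic (34 kept), 16 as kinesins of cargo transport (13 kept) and 18 as neither or as similar names only (7 kept).

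RNA depleted of ribosomal RNA was sequenced in 1 library a day. The day 0 cells had LIF (leukemia inhibitory factor) in their medium, which keeps mouse stem cells undifferentiated, and received DMSO. On days 1 to 6 they were without LIF and with 5 µM retinoic acid. The loss of LIF, the retinoic acid and the days in culture cannot be told apart, and it is not stated whether each day was a culture of its own. Values are the deposited log2 read values per transcript, which are not divided by length, and levels of different genes are compared only per kilobase.

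In a dividing cell the centromere is marked by the histone variant CENP-A, on which the inner kinetochore assembles. The NDC80 complex of the outer kinetochore grips microtubules, and Bub proteins at unattached kinetochores hold back CDC20, the activator of the anaphase-promoting complex, until every chromosome is attached. Cyclin B with CDK1 drives entry into mitosis, and its destruction lets cells leave it. Kinesins are motors that walk on or dismantle microtubules: some build and move the spindle, while others carry vesicles, organelles and ciliary cargo in cells that are not dividing.

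The recovered reads came to between 7194325 and 17923852 a library, lowest on day 6. On day 6 the differences from day 5 moved with transcript length over all genes kept (Spearman correlation −0.78, a description), so that day is given apart and the course below covers days 0 to 5. Between days 0 and 5 the summed log2 level of 6 pluripotency markers went from 15.91 to 9.40. Over the same days the sum for 8 extraembryonic endoderm markers went from 13.79 to 17.67, with its highest value of 18.26 on day 3. The sum for 6 neural markers stayed between 11.49 and 12.48, but its members differed. Between days 0 and 5 Nes went from 7.39 to 10.25 and Dcx from 8.02 to 9.24. Stmn2 went from 11.74 to 8.68 and Sox1 from 6.56 to 5.30. Pax6 (7.71 and 7.93) and Tubb3 (10.61 and 10.62) ended near their day 0 values. The sum for 6 fibroblast markers went from 9.77 to 14.86. Among these 6, Acta2 went from 4.94 to 13.40, and Thy1 alone went lower, from 7.76 to 4.51. The part of these changes in the results below was not tested. In bulk RNA, fewer cells of a type and less RNA per cell cannot be told apart.

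Over days 0 to 5 more mitotic members fell than rose, and more transport kinesins rose than fell. A straight line on day, fitted to 6 libraries with limma and adjusted over all 7242 genes, called 16 of the 34 mitotic members kept as falling and 0 as rising, where 26.8% of all genes kept fell and 25.7% rose. The other 18 mitotic members were not called. The median slope of the mitotic members was −0.12 log2 units a day (range −0.35 to 0.12), beside −0.0012 for all genes. Of the 13 transport kinesins kept, 6 rose and 1 fell, with a median slope of 0.17 and a range of −0.78 to 0.55. After the correction for transcript length given below, 3 of the 13 rose and 2 fell. With that correction 21.2% of all genes kept rose and 31.6% fell. Without the day 0 library 2 of the 6 rising calls were left, Kif1c and Kif3c. Rising calls over all 7242 genes also went from 1858 to 1038 without that library. Without the day 4 library 3 transport kinesins rose. Without the day 5 library 12 mitotic members fell. The calls came from the residual spread of single libraries around a line, so they hold for these 6 libraries and not for replicate cultures.

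**Figure D1:**
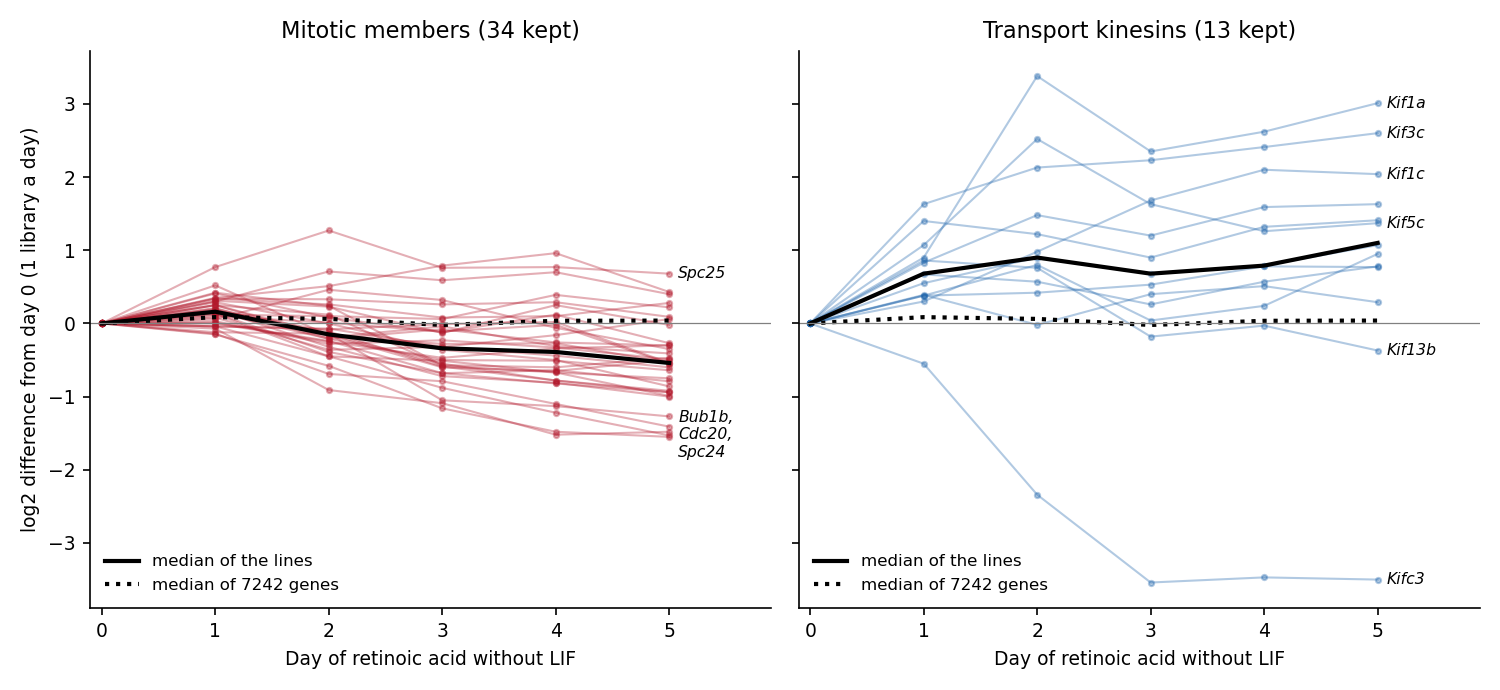
Log2 difference from day 0 on days 0 to 5 for each mitotic member kept (left, 34 lines) and each transport kinesin kept (right, 13 lines), with 1 library a day. The solid line is the median of the lines and the dotted line the median of all genes kept: on day 5 the medians are −0.54 for the mitotic members, 1.1 for the transport kinesins and 0.039 for all genes.

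The mitotic members did not go down at once. Their median difference from day 0 was 0.16, −0.15, −0.34, −0.39 and −0.54 over days 1 to 5. On day 1, 26 of the 34 stood above day 0 (59.3% of all genes kept did), and from day 1 to day 2, 30 of the 34 went to a lower value (52.5% of all did). With a correction for transcript length, described below, the mitotic median was 0.021 on day 1 and −0.76 on day 5. The median of all genes kept was then −0.05 and −0.17, beside 0.086 and 0.039 without the correction. Day 1 was the highest of the 6 days for 21 of them (61.8%, beside 19.3% of all genes kept), and day 5 was the lowest for 22 (64.7%, beside 22.9%). The transport kinesins were already at a median of 0.68 on day 1 and reached 1.1 on day 5, where the length correction gave 0.39 and 0.50. Day 0 was the lowest day for 10 of the 13 (76.9%, beside 36.7% of all genes), and day 4 or 5 the highest for 9 (69.2%, beside 34.3%). The curved term of a fit with day and day squared was called for 0 members (0.0414% of all genes kept were called with a high middle and 0.0% with a low one). At an unadjusted p under 0.05 it took in 4 mitotic members and 4 transport kinesins, of 1441 genes in all.

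By size alone, 6 of the 34 mitotic members were at least 2-fold lower on day 5 than on day 0 (14.1% of all genes kept were) and 0 were at least 2-fold higher (20.9% of all). Of the transport kinesins, 7 of 13 were at least 2-fold higher and 1 was at least 2-fold lower. On day 1 no mitotic member had moved 2-fold (1.96% of all genes were lower by that much and 6.06% higher), while 3 transport kinesins were higher. On day 3 the counts were 3 mitotic members lower (9.85% of all genes) and 5 transport kinesins higher with 1 lower (17.3% of all genes were higher).

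Per kilobase of transcript, the highest mitotic members on day 0 were Ccnb1, at 3390 normalized reads, and Cdc20, at 3190, and on day 5 these stood at 1280 and 1110. The motor Kif14 stood at 94.3 and 47.1 on the same scale. Of the transport kinesins, Kif3c and Kif1a were the lowest on day 0, at 19.6 and 21.1, and reached 119 and 170 on day 5. The cargo motor Kif5b, at 542 and 666, was well above both on either day.

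The kinases, cyclins B and Cdc20 had the steepest median slope of the mitotic groups, −0.26, and 5 of the 6 kept fell (26.8% of all genes kept did). Cdc20, which activates the anaphase-promoting complex, had log2 values of 12.48, 12.61, 12.03, 11.60, 11.26 and 10.95 from day 0 through day 5. It was high on the first days and lower on each day from day 2. On day 5 it was 2.89-fold below day 0 (log2 −1.53, 95% counting interval −1.62 to −1.44), and its slope was −0.35 ± 0.041 (SE, limma adjusted p = 0.00273).

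Ccnb1, cyclin B1 (mm9 chr13:101548693-101556441, minus strand), had values of 12.95, 12.81, 12.26, 12.16, 11.85 and 11.54 on days 0 to 5. Each day was lower than the day before, 2.65-fold in all, with a slope of −0.29 ± 0.031 (limma adjusted p = 0.0024). Its partner Ccnb2, cyclin B2, stayed at 11.27, 11.15 and 11.13 on days 0 to 2 and stood at 10.22, 10.14 and 10 on days 3 to 5. That course is a step between days 2 and 3 and not an even decline, and its slope was −0.30 ± 0.052 (limma adjusted p = 0.00545).

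Plk1, the kinase of mitotic entry and spindle assembly, had values of 11.64, 11.89, 11.49, 11.09, 10.86 and 10.70 on days 0 to 5. Aurka, the spindle pole kinase, had 11.09, 11.05, 10.64, 10.58, 10.42 and 10.10. Both were lowest on day 5, at 1.91-fold and 2.00-fold below day 0, and both fell (slopes −0.23 and −0.20, limma adjusted p = 0.00645 and 0.00478). Aurkb, the kinase of the chromosomal passenger complex, went from 10.51 to 11.03 on day 1, to 9.86 on day 4 and to 10.01 on day 5. It was not called (slope −0.18, limma adjusted p = 0.0531). It was called as falling with the length correction (adjusted p = 0.0386), median-centring (0.026) and quantile normalization (0.0322). Aurkc, an Aurora kinase of germ cells, did not pass the filter, with 12 reads on day 0 and 9 on day 5.

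Of the checkpoint genes, all 3 fell (26.8% of all genes kept did). Bub1b, which encodes the checkpoint protein BubR1, had values of 12.42, 12.27, 11.84, 11.26, 10.94 and 10.87 on days 0 to 5. No day was above the day before it, and the difference on day 5 was 2.93-fold (log2 −1.55, counting interval −1.64 to −1.46), the largest of the mitotic members kept. Its slope was −0.35 ± 0.038 (limma adjusted p = 0.0024). Bub1, the kinase that recruits other checkpoint proteins, and Bub3, which carries Bub1 and BubR1 to the kinetochore, had smaller slopes of −0.12 and −0.16 (limma adjusted p = 0.0331 and 0.0137). Both stood highest on day 1, at 10.94 and 11.76. The call of Bub1 was lost without day 1, 3, 4 or 5 (limma adjusted p = 0.0727, 0.0601, 0.0723 and 0.154).

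Of 13 inner kinetochore genes, 7 were kept and 1 of them fell, where 26.8% of all genes kept fell. That 1 was Cenpa, the centromeric histone, at 10.25, 10.50, 10.37, 9.67, 9.58 and 9.50 on days 0 to 5. Its values split into a high set on days 0 to 2 and a low set on days 3 to 5 (slope −0.21 ± 0.054, limma adjusted p = 0.0194), and the call was lost without day 1, day 4 or day 5 (adjusted p = 0.0516, 0.0643 and 0.0617). Of the 6 not kept, Cenpm, Cenpo and Cenpp fell in a fit without the filter and are given below. The other 6 of those kept, which include Cenpc1, the link to the outer kinetochore, and Cenpt, another link, were not called, with a median over the 7 of −0.077. With median-centring and quantile normalization Cenpb and Cenpn were called as falling, and Cenpb also with the length correction. Cenpi and Cenph, both of the constitutive centromere network, had slopes of 0.053 and −0.077 and were not called.

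Of the 4 genes of the NDC80 complex 1 fell, a share near the 26.8% of all genes kept that fell. Spc24 had values of 10.11, 10.04, 9.20, 9.02, 8.59 and 8.63 on days 0 to 5, 2.78-fold lower on day 5 (slope −0.34 ± 0.053, limma adjusted p = 0.00397). Its binding partner Spc25 went the other way over the first days, at 8.96, 9.73, 10.23, 9.72, 9.73 and 9.64. Ndc80 and Nuf2, the microtubule-binding end of the same rod, stayed between 9.18 and 9.89. None of these 3 was called (limma adjusted p = 0.429, 0.216 and 0.783). The difference between the courses of Spc24 and Spc25 was not tested.

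The 2 corona genes, those of the fibrous outer layer, were not called in this fit. Cenpe, a kinesin-like motor that brings chromosomes to the spindle equator, had values of 10.30, 10.65, 10.81, 11.09, 11.26 and 10.73, up to day 4 and lower on day 5. Without the day 5 library limma called it as rising, and with the length correction its slope of 0.12 became 0.011. Cenpf, a large corona protein, had values of 11.45, 11.55, 11.46, 11.34, 11.43 and 10.90, level over 5 days and lowest on day 5 (slope −0.093, limma adjusted p = 0.103). It was called as falling with the length correction (slope −0.20, adjusted p = 0.00541) and with median-centring (0.0344).

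Of the 12 mitotic kinesins, 6 fell and 0 rose, with a median slope of −0.11 (26.8% of all genes kept fell and 25.7% rose). With the length correction 10 of the 12 fell, with a median of −0.17 (31.6% of all genes kept fell). Kif11, the motor that pushes spindle poles apart, had values of 11.42, 11.71, 11.42, 11.06, 10.92 and 10.56 on days 0 to 5. Kif2c, which dismantles microtubules at faulty attachments, had 11.13, 11.31, 11.02, 10.54, 10.35 and 10.21. Both peaked on day 1 and were lowest on day 5 (slopes −0.20 and −0.23, limma adjusted p = 0.0121 and 0.00651). Kif14, a motor of cytokinesis, had values of 9.70, 9.89, 9.38, 8.98, 8.89 and 8.70, which is 2.00-fold below day 0 on day 5 (slope −0.24, limma adjusted p = 0.00686).

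Kif22, a chromosome-arm motor, Kif18a, which damps chromosome movement, and Kif20a, a midzone motor, also fell, with slopes of −0.22, −0.19 and −0.13. The 6 mitotic kinesins not called were Kif4, Kif15, Kif18b, Kif20b, Kif23 and Kifc1, of which Kif15, Kif18b, Kif20b and Kifc1 fell with the length correction. The calls of Kif11 and Kif20a were lost without day 5 and that of Kif18a without day 4. Kif23, the motor of the centralspindlin complex, was highest on day 2 at 11.36 and stood at 10.55 on day 5. Kif4, a chromokinesin, was the flattest of the 12, between 10.17 and 10.51.

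**Figure D2:**
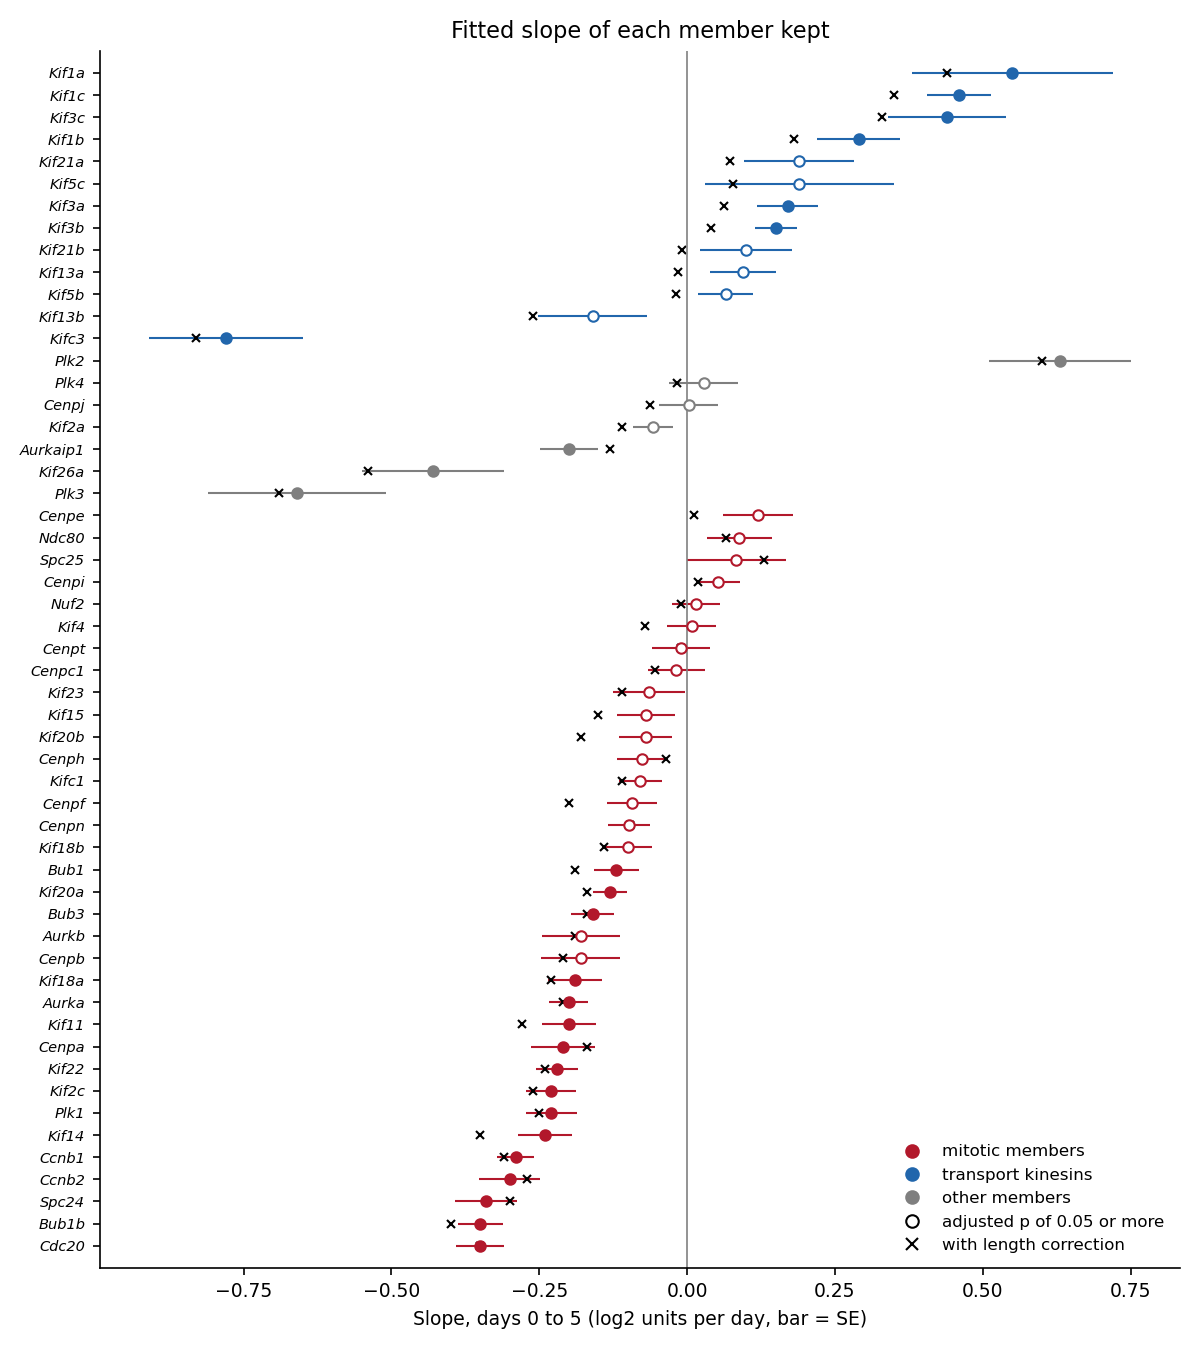
Slope of each of the 54 members kept over days 0 to 5 in log2 units a day (points, with bars for the SE of the limma fit), transport kinesins on top, other members in the middle and mitotic members below, with filled points called at a limma adjusted p under 0.05. Crosses give the slope after the length correction: without it the mitotic members lie between −0.35 and 0.12, and the transport kinesins between −0.78 and 0.55.

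Mitotic genes are known for a promoter element called the cell cycle genes homology region (CHR), commonly TTTGAA or TTCGAA, often near CCAAT boxes bound by the factor NF-Y. Promoters from RefSeq (build GRCm38.p6, 250 bases before to 50 after each start) were matched for 38 of the 41 mitotic symbols, giving 41 windows, and for 10 of the 16 transport kinesins, giving 12 windows. Both motifs were searched on both strands. The promoters of Bub1b, Cdc20 and Ccnb2, which fell, are shown for their matches, and that of Kif1c, a transport kinesin that rose, as one with neither. Each is the 250 bases before the start, 5′ to 3′ on the gene's strand, with capitals marking the CHR letters and the CCAAT boxes. A CCAAT box on the other strand reads ATTGG. The positions are chr2:118597961-118598210 (plus strand) for Bub1b, chr4:118437344-118437593 (minus) for Cdc20, chr9:70421555-70421804 (minus) for Ccnb2 and chr11:70700298-70700547 (plus) for Kif1c.
Bub1b: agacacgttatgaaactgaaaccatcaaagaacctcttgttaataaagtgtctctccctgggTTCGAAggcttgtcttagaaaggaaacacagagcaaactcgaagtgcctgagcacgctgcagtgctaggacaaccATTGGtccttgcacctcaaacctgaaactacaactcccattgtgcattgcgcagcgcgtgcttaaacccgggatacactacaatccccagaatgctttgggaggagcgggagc
Cdc20: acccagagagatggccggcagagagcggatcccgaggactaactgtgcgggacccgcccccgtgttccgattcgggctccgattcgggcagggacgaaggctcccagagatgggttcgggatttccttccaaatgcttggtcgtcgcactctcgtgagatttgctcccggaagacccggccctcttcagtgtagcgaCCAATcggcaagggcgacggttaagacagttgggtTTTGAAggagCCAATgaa
Ccnb2: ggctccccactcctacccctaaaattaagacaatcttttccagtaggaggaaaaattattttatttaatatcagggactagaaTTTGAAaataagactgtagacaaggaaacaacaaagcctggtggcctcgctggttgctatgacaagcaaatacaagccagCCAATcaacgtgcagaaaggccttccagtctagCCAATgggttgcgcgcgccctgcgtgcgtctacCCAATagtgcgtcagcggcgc
Kif1c: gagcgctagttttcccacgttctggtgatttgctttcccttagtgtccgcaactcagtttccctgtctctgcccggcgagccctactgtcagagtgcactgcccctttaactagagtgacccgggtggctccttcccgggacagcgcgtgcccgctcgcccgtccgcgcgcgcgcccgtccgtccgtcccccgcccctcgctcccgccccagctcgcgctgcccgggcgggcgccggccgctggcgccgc
Cdc20 has its CHR letters near the start, with a CCAAT box on each side, and Ccnb2 has 3 CCAAT boxes. CHR letters can also lie after the start, and 5 short stretches around such letters are given next, in capitals (TTCAAA is a match on the other strand). They were chosen to show that the letters recur in genes of different role, called and not: Aurka, Bub1b, Cenpa and Plk1 fell, and Ndc80 was not called. The stretches lie at chr2:172370521-172370550 (minus), chr2:118598239-118598260 (plus), chr5:30666890-30666919 (plus), chr17:71526811-71526840 (minus) and chr7:122159453-122159482 (plus).
Aurka: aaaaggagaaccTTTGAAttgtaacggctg
Bub1b: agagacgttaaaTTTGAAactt
Cenpa: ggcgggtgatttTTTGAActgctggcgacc
Ndc80: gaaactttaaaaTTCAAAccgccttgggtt
Plk1: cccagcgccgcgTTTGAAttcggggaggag

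Counted over the 250 bases before the start, CHR letters were in 13 of the 41 mitotic windows (31.7%), 1 of the 12 transport windows (8.33%) and 17.1% of all promoters in the RefSeq table. CCAAT was in 27 mitotic windows (65.9%) and 4 transport windows (33.3%), beside 33.8% of all. Both stood together in 11 mitotic windows (26.8%) and 0 transport windows, beside 6.02% of all. With the 50 bases after the start included, CHR letters were in 25 mitotic windows (61.0%, beside 19.2% of all) and both motifs in 21 (51.2%, beside 7.52%). Within 50 bases of the start on either side, a window chosen after the matches were seen, CHR letters were in 20 mitotic windows (48.8%) and in 5.31% of all. Bub3 has overlapping windows that share a site, so the windows are not all separate. These are matches of letters and not measured sites.

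The letters were in the promoters of members that fell and of members that were not called. Among the mitotic members kept and matched, 12 of the 14 that fell had CHR letters in the whole window (85.7%) and so did 10 of the 17 not called (58.8%). No test of that difference was made.

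**Figure D3:**
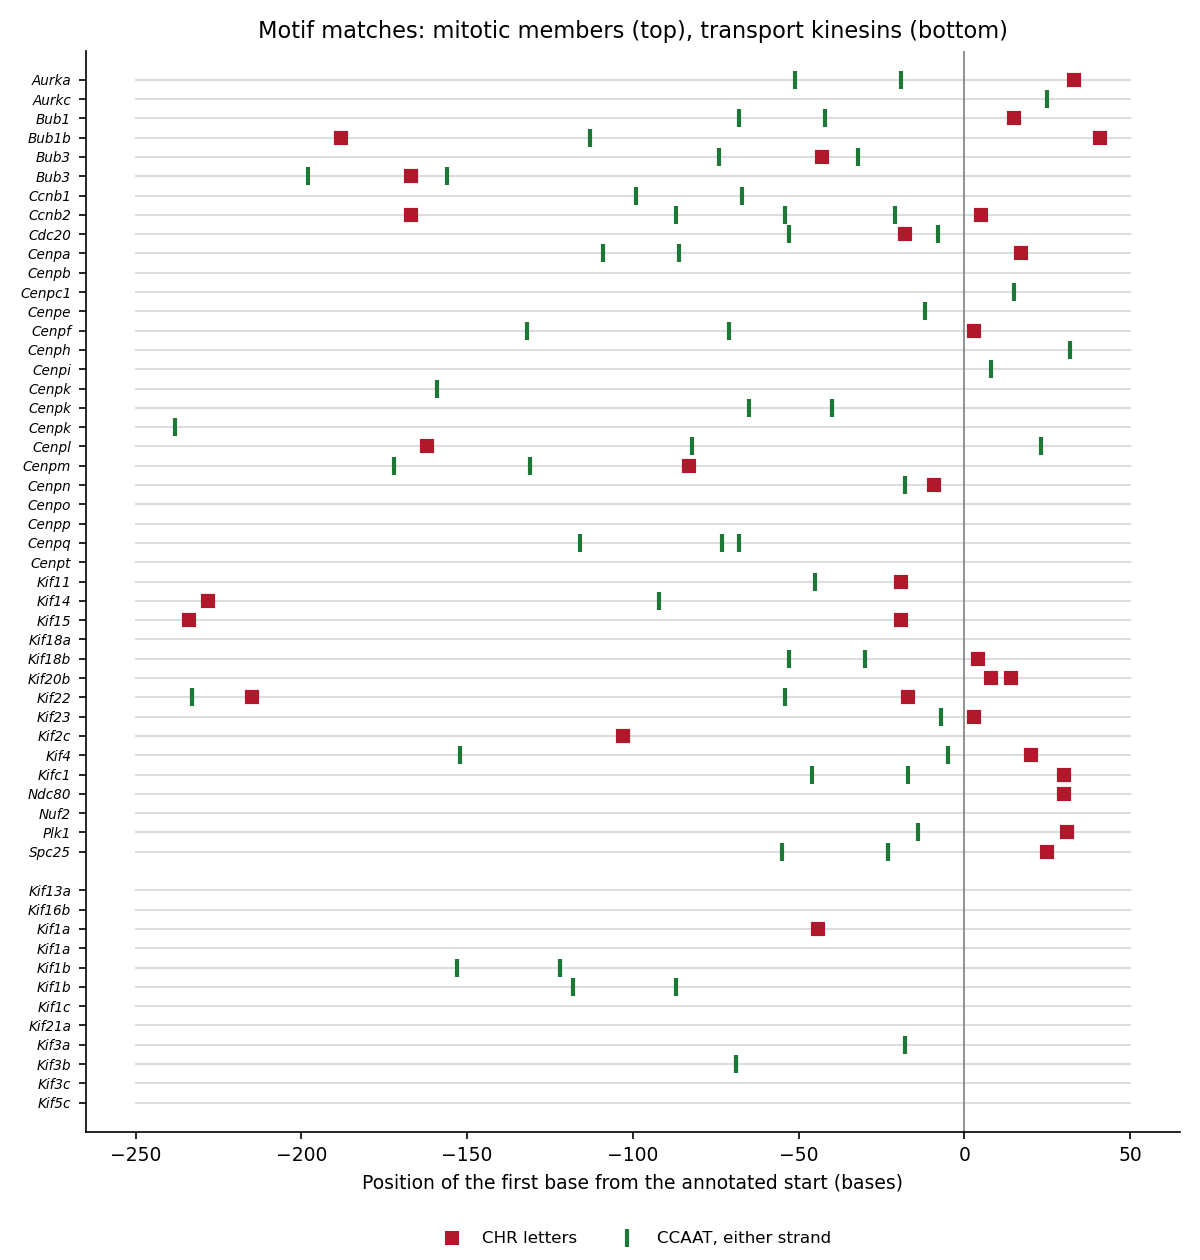
Position of CHR letters (squares) and CCAAT boxes (bars) in bases from the annotated start, in each of the 41 mitotic windows (top) and 12 transport kinesin windows (bottom), each line a window of 250 bases before to 50 after the start. Squares are in 25 mitotic windows, many close to the start, and in 1 transport window.

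Of the transport kinesins kept, 6 of 13 rose (25.7% of all genes kept did). Kif1c, a motor of vesicles and Golgi-derived cargo, had the smallest adjusted p among them (mm9 chr11:70514049-70545472, plus strand), with values of 9.82, 10.12, 10.80, 11.50, 11.92 and 11.86 on days 0 to 5. It went up over the first 4 steps and levelled on day 5, 4.10-fold above day 0 (log2 2.04, counting interval 1.90 to 2.18, slope 0.46 ± 0.054, limma adjusted p = 0.0026).

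Kif1a, the carrier of synaptic vesicle precursors in neurons, had values of 7.45, 8.35, 10.83, 9.80, 10.07 and 10.46 on days 0 to 5. Its highest day was day 2, and days 2 to 5 all stood above days 0 and 1 (slope 0.55 ± 0.17, limma adjusted p = 0.036). The call was lost when any of days 0, 1, 3, 4 or 5 was left out (adjusted p up to 0.228), with quantile normalization (0.0519) and with the length correction described below (0.0502). Of the 6 neural markers, Pax6 was highest on day 2, Sox1 on day 1, Nes on day 3, Tubb3 and Dcx on day 5 and Stmn2 on day 0, and their summed level was 12.48 on day 0 and 11.90 on day 2. The part of neural cells in this course was not tested. Kif5c, a conventional kinesin heavy chain of neurons, was also highest on day 2, at 10.79 from 8.27 on day 0 and with 9.64 on day 5, and was not called (limma adjusted p = 0.341).

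Kif1b, which carries mitochondria and vesicle precursors, had values of 9.96, 10.79, 11.44, 11.16, 11.55 and 11.59 on days 0 to 5 and was 3.10-fold higher on day 5 (slope 0.29, limma adjusted p = 0.0149; 0.0851 without day 0). Kif3a and Kif3b form the motor that carries cargo into cilia, and Kif3c can take the place of Kif3b. Kif3c had values of 7.07, 8.70, 9.20, 9.30, 9.48 and 9.67, a course with most of its difference in the first step and small steps after day 2. Kif3a went from 8.99 to 10.06 and Kif3b from 9.26 to 10.03. All 3 rose, with slopes of 0.44, 0.17 and 0.15 (limma adjusted p = 0.014, 0.0344 and 0.0147). The call of Kif3a was lost when any of days 0, 1, 3, 4 or 5 was left out (adjusted p = 0.0527 to 0.221), and that of Kif3b without day 0 or day 4. The length correction took the slopes of Kif3a and Kif3b to 0.063 and 0.040, and neither was then called.

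Kifc3, a motor that walks toward microtubule minus ends and is known at cell junctions, was the transport kinesin kept that fell. Its gene lies at mm9 chr8:97623727-97666440 on the minus strand, and its values were 11.13, 10.58, 8.79, 7.59, 7.66 and 7.63 on days 0 to 5, so that the difference was in place by day 3. On day 5 it was 11.3-fold lower (log2 −3.49, counting interval −3.74 to −3.26, slope −0.78 ± 0.13, limma adjusted p = 0.00492). Kifc2, a related motor that did not pass the filter, had 8.25 on day 0 and 7.08 on day 5 and fell in the fit without the filter (slope −0.33, limma adjusted p = 0.0202).

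The 6 transport kinesins not called were Kif5b, Kif5c, Kif13a, Kif13b, Kif21a and Kif21b. Kif5b, the conventional heavy chain found in most cells, stayed between 11.33 and 11.86. Kif13a, an endosome motor, was lowest on day 0 (9.71) and highest on day 5 (10.49). Kif13b, a carrier of vesicles, was highest on day 1 (10.90) and lowest on day 5 (9.67), and it fell with the length correction (limma adjusted p = 0.0249). Of the kinesins that were neither group, Kif26a, an atypical kinesin with no motor activity, fell (9.55 on day 0, 10.49 on day 1, 8.10 on day 5, limma adjusted p = 0.0248), and Kif2a, a microtubule-dismantling motor, was not called.

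Kif26b, the relative of Kif26a, had the largest difference of all 75 members, although its mean was under the filter. It lies at mm9 chr1:180459255-180862987 on the plus strand, and its values were 4.26, 4.37, 7.26, 9.77, 10.10 and 10.58 on days 0 to 5, from 10 reads on day 0 to 1281 on day 5. It was near the floor on days 0 and 1 and went up from day 2, which is 79.7-fold on day 5 (log2 6.32, counting interval 5.43 to 7.38). In a fit without the filter, in which 22.1% of genes fell and 25.9% rose, it was called as rising (slope 1.47, limma adjusted p = 0.00307).

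The other polo-like kinases had other courses than Plk1. Plk2, an inducible kinase of stressed and non-dividing cells, had values of 8.02, 9.09, 10.45, 11.23, 11.11 and 11.09 on days 0 to 5, 8.38-fold higher on day 5 and level from day 3 (slope 0.63, limma adjusted p = 0.00761). Plk3, a stress-responsive kinase, had 9.97, 11.24, 9.93, 8.28, 7.96 and 7.62: it was highest on day 1 and 5.09-fold below day 0 on day 5 (slope −0.66, limma adjusted p = 0.0116). Plk4, the kinase of centriole duplication, was not called, between 9.51 and 10.14. Aurkaip1, named for its binding to Aurora A and also a mitochondrial ribosome protein, fell from 10.45 to 9.57 (limma adjusted p = 0.0144).

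Of the 21 members not kept, 7 were mitotic, 3 were transport kinesins and 11 were others, and their means lay between 4.12 and 8.38. In the fit without the filter, 3 of the 7 mitotic members fell, namely Cenpm, Cenpo and Cenpp, and 0 rose (22.1% of all genes fell and 25.9% rose). Cenpm, of the constitutive centromere network, went from 10.06 on day 0 to 6.68 on day 4 and 7.49 on day 5 (slope −0.68, limma adjusted p = 0.0152). Ccnb1ip1, a meiotic crossover gene with a cyclin-like name, went from 8.95 to 6.26 (slope −0.61, limma adjusted p = 0.0059).

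Partners of these genes outside the name rule were counted on lists drawn up by function, with earlier results of these data known. The counts are of the genes kept, and 26.8% of all genes kept fell and 25.7% rose. Of 8 chromosomal passenger and cohesion-guarding genes 7 were kept, and these 7 fell (median slope −0.20), with Cdca5, the cohesion protector sororin, at −0.44 and Incenp, the passenger scaffold, at −0.20. Of 7 checkpoint partners 5 fell and 0 rose, Mad2l1, the checkpoint protein Mad2, among them at −0.23. Ccdc99, at −0.059, was not called. Of 6 genes of the Cdk1 switch 3 fell and 0 rose, with Cdk1 itself at −0.17, and Wee1, the kinase that inhibits it, had a slope of 0.05 and was not called.

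Spindle and cytokinesis genes fell in 6 of 13 and rose in 0, with Ect2, the activator of the contractile ring, at −0.34. Ckap2 had the most positive slope of that list, 0.082, and was not called. Condensin and topoisomerase genes, which compact and untangle chromosomes, fell in 4 of 9 and rose in 0. Their slopes ran from −0.21 (Ncapd3) to 0.11 (Smc4, not called). Regulators of mitotic transcription fell in 4 of the 7 kept of 12 and rose in 0, led by Mybl2, the B-Myb subunit that works with the MuvB complex, at −0.70 (limma adjusted p = 0.00225). The others that fell were Rbbp4, E2f4 and Tfdp1, and Foxm1 was not called (slope −0.053, limma adjusted p = 0.483). Lin54 had the most positive slope of these regulators, 0.063, and was not called. The anaphase-promoting complex and its partners split, with 5 of 15 falling, a share near that of all genes, and 3 rising (1 rising with the length correction): Ube2s, which extends ubiquitin chains, had a slope of −0.30 and Cdc16, a core subunit, 0.24. Of the 5 outer kinetochore genes of the Mis12 and Knl1 group 1 fell (Pmf1) and 1 rose (Zwint).

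The partners of transport kinesins and the dynein genes had 6 of 16 rising and 0 falling (median slope 0.084), and 5 rising with the length correction. Of all genes kept 25.7% rose and 26.8% fell, and 21.2% rose with the length correction. Of the genes kept at least as long as the shortest transport kinesin 32.0% rose, but part of this list is shorter than that. Whether the list differs from other genes was not tested. Klc1, a light chain that binds cargo to conventional kinesin, went from 8.93 to 10.48 (slope 0.28, limma adjusted p = 0.0118). Mapk8ip3, an adaptor for kinesin and dynein, went from 9.47 to 11.18 (slope 0.29, limma adjusted p = 0.00371). Kidins220, which is carried by kinesin, had a slope of 0.39. The most negative slope of the list was −0.065, that of Dync1li1, which was not called.

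Transport kinesins are long genes, and slope moved with transcript length over all genes kept (Spearman correlation 0.23, across genes, as a description). The median length was 2681.5 nucleotides for the mitotic members kept, 6787 for the transport kinesins kept and 3043.5 for all genes kept. A correction that removes a smooth dependence on length from each library left 23 mitotic members falling and 0 rising, where 31.6% of all genes fell and 21.2% rose. All 16 of the earlier calls were among the 23, and the mitotic median was −0.17, beside −0.033 for all genes kept. Of the transport kinesins 3 rose after the correction (Kif1b, Kif1c and Kif3c) and 2 fell (Kif13b and Kifc3), and the median went to 0.063. Kif1a, Kif3a and Kif3b were no longer called (limma adjusted p = 0.0502, 0.209 and 0.346). Over all genes kept the Spearman correlation of slope with length was 0.0 after the correction. Within the 13 transport kinesins it was 0.54 both before and after, as a description. By size, 14 mitotic members were then at least 2-fold lower on day 5 than on day 0 (18.8% of all genes kept) and 4 transport kinesins at least 2-fold higher (16.4%).

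Among the 11 mitotic members at least as long as the shortest transport kinesin, 5 fell and 0 rose (median slope −0.093). Among the 3084 genes kept of that length, 19.2% fell and 32.0% rose (median slope 0.051). The part of length in the transport calls was not tested beyond these values.

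Day 6 differed from day 5 by more than the earlier steps did, and 51.7% of all genes kept were at least 2-fold lower than on day 5 and 18.6% at least 2-fold higher. Of the mitotic members 9 were lower by that much and 5 higher, with a median difference of −0.22 and a range of −4.43 to 1.97. Within them the difference moved with length (Spearman correlation −0.84, a description): the long genes Kif14 and Cenpf went from 8.70 to 4.26 and from 10.90 to 7.26, and the short gene Cenpa from 9.50 to 11.47. Of the transport kinesins 12 of 13 were at least 2-fold lower, with a median of −2.7. After the length correction the medians were 0.54 for the mitotic members and 0.36 for the transport kinesins. With all 7 libraries in the straight line (3.78% of all genes fell and 1.6% rose), Bub1b and Ccnb1 were the mitotic members that fell, and 0 transport kinesins rose, 0 also at an unadjusted p under 0.05.

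**Figure D4:**
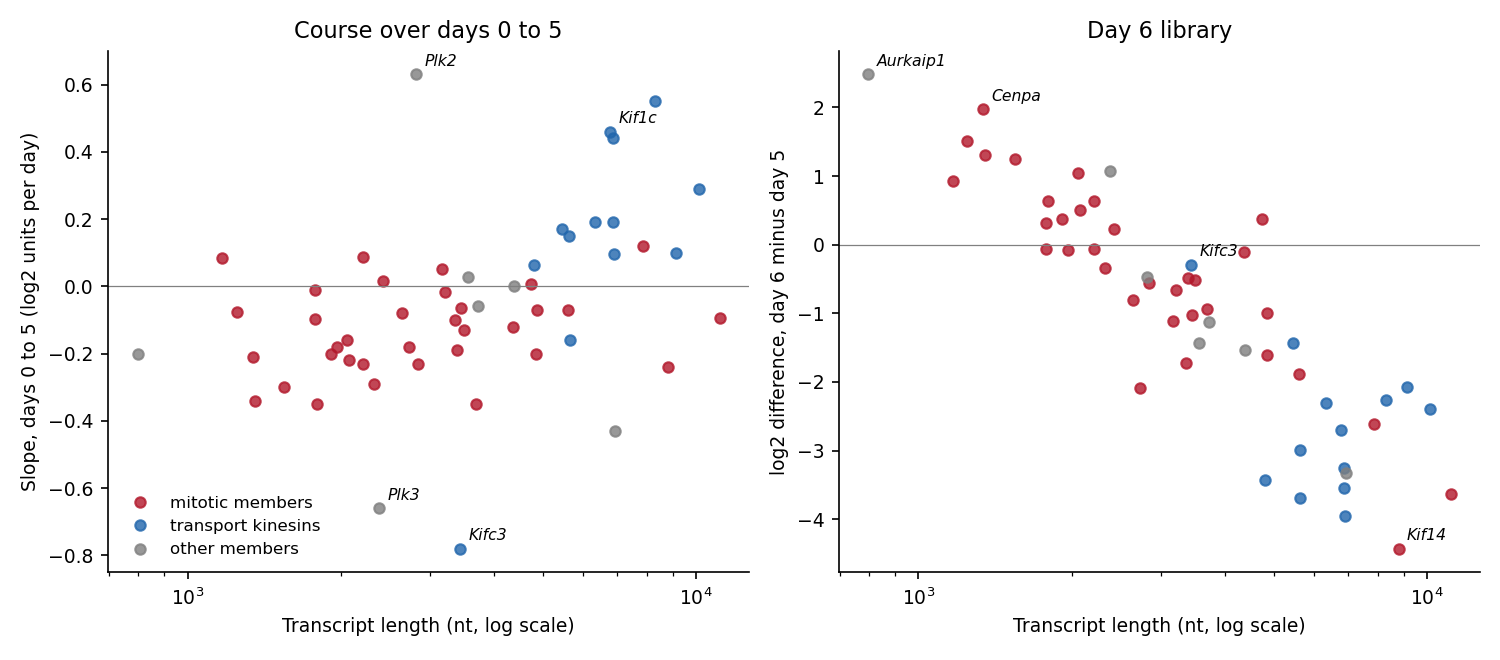
Transcript length in nucleotides (log axis) of each member kept against its slope over days 0 to 5 (left, log2 units a day) and against its log2 difference between day 6 and day 5 (right), each point a member, coloured by group. The right panel slopes down with length (Spearman correlation −0.84 within the mitotic members), and the median lengths are 6787 nucleotides for transport kinesins and 2681.5 for mitotic members.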

How the data were processed

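Alignment was with BWA 0.7.3 on mouse build mm9, per the submitters' processing notes. How reads were counted, with which strand setting and annotation, and how libraries were scaled were not given in the sources used here. In the deposited table the authors give log2 values per transcript, 1 column a day. Raised from the log, all values of up to 1000 reads lay within 0.05 of a whole multiple of the worth of 1 read, taken from each library's lowest value. Reads were recovered on that basis. A constant added to the counts before scaling could not be told apart, and it would shift the recovered reads, most of all for low members. Transcripts of a gene, near-identical copies and overlapping genes can share reads.

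The members and gene lists were chosen with earlier results of these data known. Genes with a mean log2 value over all 7 libraries above 8.40, the 40th percentile, were kept. Day 6 thus entered the filter of the fits on days 0 to 5. Kif16b, Kif7 and Kif24 had means of 8.65, 8.51 and 8.46 over days 0 to 5 but were dropped at 8.20, 8.30 and 8.08. The log2 values of days 0 to 5 were fitted with a line per gene in limma 3.58.1 (R 4.3.3, eBayes with trend), and p-values were adjusted by Benjamini-Hochberg across the genes kept. The procedure was run on simulated data with independent libraries and few genes changing along straight lines. In the real libraries many more genes were called and slope moved with length, so that run does not give the error of the calls here. A count model on the recovered reads was not used. Each day has 1 library, so p-values measure spread around a line. Differences between 2 libraries carry exact binomial (Clopper-Pearson) intervals at 95%, which cover counting error only. Summed marker levels are log2 of the summed values. Alternatives changed the filter, scaling, pseudocount, length correction and libraries. Members were picked by rule as those with the most negative and most positive slope of each role. Added to these were the 4 largest slopes each way among mitotic members and transport kinesins. So were the 3 smallest p-values of the curved term, the 3 largest day 6 differences each way and 17 fixed examples. Not all of these have a value given for every day, and Cenph, Cenpi and Kif20a have slopes only. From each partner list up to 3 genes were picked by rule, the extremes and the one nearest the median, and not all of them are named. Kif22, Kif18a, Kif5c, Kif3b, Plk4, Cenpm, Ccnb1ip1, Klc1, Mapk8ip3 and Foxm1 and a few others given in passing were chosen after their values were seen.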

Additional observations from a re-analysis of the deposited data

How the results depend on the processing

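No paired analysis was possible because every day is 1 library and the replicate numbers pair nothing. With the 6 libraries of days 0 to 5, the alternatives of filter, length, scaling, pseudocount, transcript and variance model gave 14 to 23 mitotic members falling and 0 rising. Transport kinesins that fell were 2 without the filter, 0 with the stricter filter (Kifc3 was then not among the genes tested) and 2 with the length correction, and those that rose were 3 with the length correction. All genes that rose were 3132 without the filter and 1191 with the stricter one, which change how many genes are tested. The length correction moved the median slope to −0.17 for mitotic members and 0.063 for transport kinesins. With all 7 libraries 2 mitotic members fell, 0 transport kinesins rose (median slope −0.10), and 274 genes fell and 116 rose. The median day 6 minus day 5 difference of mitotic members was −0.084 without the filter, −0.095 with the stricter filter, 0.54 with the length correction, 0.83 with median-centring and 0.66 with quantile normalization; that of transport kinesins was −2.5, −3.0, 0.36, −1.6 and −1.2 in the same order. Transport kinesins at least 2-fold higher on day 5 were 3 with the stricter filter, 4 with the length correction and 4 with quantile normalization. Mitotic members at least 2-fold lower were 14 with the length correction and 11 with median-centring.

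Leaving out 1 library in turn, mitotic members that fell ranged from 12 to 17 and those that rose from 0 to 1 (Cenpe, without day 5). Transport kinesins that rose ranged from 2 to 6 and those that fell from 1 to 2. All genes that fell ranged from 1240 to 1960 and those that rose from 1038 to 2005. Median slopes ranged from −0.15 to −0.11 for mitotic members and from 0.058 to 0.18 for transport kinesins.

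Of the named slopes, these changed sign. With the length correction Kif13a became −0.015, Kif4 −0.072 and Kif5b −0.018. Kif4 became −0.023 with median-centring and −0.013 with quantile normalization. With all 7 libraries Aurkaip1 became 0.11, Cenpa 0.03, Cenpe −0.21, Cenph 0.11, Cenpi −0.078, Kif13a −0.33, Kif1b −0.02, Kif3a −0.0061 and Kif5b −0.32. Leaving out 1 library in turn, Kif4 ranged from −0.053 (without day 0) to 0.05, Spc25 from −0.067 (without day 0) to 0.15 and Kif23 from −0.13 to 0.013 (without day 5). Apart from day 6, whose differences moved with length, the cause of these changes was not tested. Depth limits low members most: Aurkc had 12 reads on day 0 and Kif26b 10.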
